A study of Mus musculus with 2 samples.

Results

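A set of 10 genes of the brain endothelium and the blood-brain barrier was followed in the prefrontal cortex (PFC) of mice with and without chronic mild stress (CMS). They were chosen by name, for what they are known to do, with earlier results of these data known. They are Cldn5, Ocln and Tjp1 of the tight junction, Pecam1 and Cdh5 of the contacts between endothelial cells, the receptors Flt1 and Tek, the secreted Vwf, and the transporters Mfsd2a and Slc2a1. The arrays carried 37069 gene names, of which 27117 had a ratio, and all 10 genes were among these. Probes whose accession had no gene symbol were counted under that accession. All shares of gene names given below therefore include transcripts without a symbol.

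RNA was measured on 2 one-color Agilent arrays, 1 of pooled RNA of the C group and 1 of pooled RNA of the CMS group. All mice were males of the strain given as C57Bl/6 N sea, aged 9 to 10 weeks at the start. Mice of the C group received ordinary care and were housed together. Mice of the CMS group were housed alone and went through 4 weeks of unpredictable mild stressors, among them restraint, forced swimming, a wet cage and electric shocks, and brains were taken on the day after the last stressor. Single housing and the stressors therefore cannot be told apart. The submitters' design text gives 7 mice per pool, whereas the methods name 10 mice per group for arrays and PCR together. Each group was 1 pool on 1 array. The spread between mice is therefore unknown, and no test was made and no p-value is given.

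The blood-brain barrier is formed by the endothelial cells of brain capillaries, which are sealed to each other by tight junctions of claudins and occludin anchored to zonula occludens scaffolds. Nutrients cross it through dedicated carriers, and transport by vesicles is held low. Endothelial identity and survival depend on VEGF and angiopoietin signaling, and barrier properties are induced by Wnt ligands from neural cells and kept up with the help of pericytes and astrocytes.

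On each array 59305 spots of 55681 probes were read, with 65.2% (C) and 65.9% (CMS) of spots well above background and no spot saturated. Signals are given after scaling of each array to a mean of 2500, and are not compared between probes. All 10 genes were well above background in both groups. They had 11 probes on 12 spots, none of which was an outlier, designed for the RefSeq accessions NM_013805 (Cldn5), NM_008756 (Ocln), NM_009386 (Tjp1), NM_001032378 (Pecam1), NM_009868 (Cdh5), NM_010228 (Flt1), NM_013690 (Tek), NM_011708 (Vwf), NM_029662 (Mfsd2a) and NM_011400 (Slc2a1). The second probe of Ocln was not well above background in either group, with signals of 21.4 (C) and 12.7 (CMS). No processing setting used it. In bulk tissue, fewer endothelial cells and less RNA per endothelial cell cannot be told apart.

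None of the 10 genes differed 2-fold between the groups. Log2 ratios of CMS over control ran from -0.22 for Slc2a1 to 0.29 for Ocln, that is, from 14.4% lower to 22.0% higher. The median was -0.02, beside -0.03 over all gene names with a ratio, of which 1.96% were more than 2-fold higher and 0.564% more than 2-fold lower. Of these calls 77.7% were higher, or 63.1% with no scaling. Positive ratios were found for 5 genes and negative ratios for the other 5. Ratios below 0 were found for 58.8% of all gene names, and for 59.9% of those well above background on both arrays. The tight junction genes differed in sign, whereas both transporters and Vwf had a lower signal in the CMS pool. With no scaling the median of all genes moved from -0.03 to -0.20 and that of the 10 genes to -0.19, so the ratios below are relative to the scaling.

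**Figure D1:**
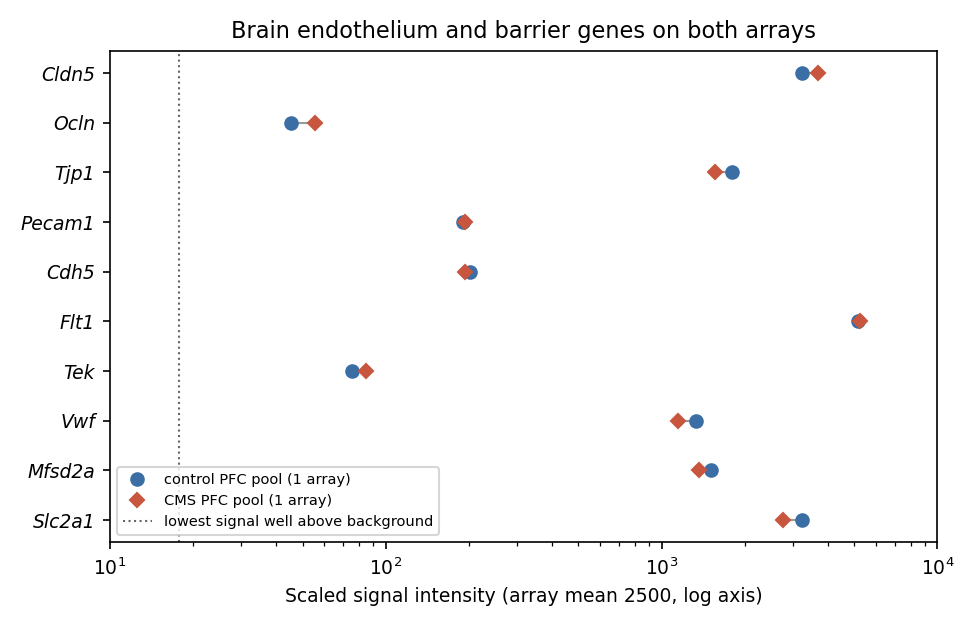
Scaled signal intensity (log axis) of each of the 10 genes in the C pool (circles) and the CMS pool (diamonds), 1 array each, with the lowest signal well above background as a dotted line. The symbols of both pools lie close together for all genes, and Ocln, at 45.4 and 55.4, lies nearest to the dotted line.

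Errors within the arrays depended on the signal. Over 342 probes that were placed more than once, the log2 ratios of the spots of a probe varied with an SD of 0.13. When these probes were divided into 3 equal classes by signal, the SD was 0.22 in the low class, up to a signal of 223, 0.08 in the middle class, up to 1294, and 0.05 in the high class. Ocln, Pecam1, Cdh5 and Tek fell in the low class, Vwf in the middle class and the others in the high class. A difference of 2 SD is used below as the limit of what the arrays resolve, which is 0.27 over all probes and 0.44, 0.17 and 0.11 in the classes. It does not cover labeling of the RNA, hybridization or mice. The scanner software's own error model gave larger errors, between 0.20 and 0.27 for the log2 ratios of these genes. Ocln, Tjp1, Vwf and Slc2a1 exceeded this error once, and none exceeded 2 times this error.

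By the limit over all probes, 1 of the 10 genes was higher (Ocln) and none was lower, beside 9.32% and 9.7% of all gene names. By the limit of its own signal class, Ocln was within the error, Cldn5 was higher, and Tjp1, Vwf, Mfsd2a and Slc2a1 were lower, that is, 1 and 4 of 10 genes beside 9.03% and 14.7% of all gene names. Which genes passed thus depended on how the error was taken. In the high class, where 7.21% of 8713 genes were higher and 20.3% lower, 1 of the 5 genes was higher and 3 were lower.

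**Figure D2:**
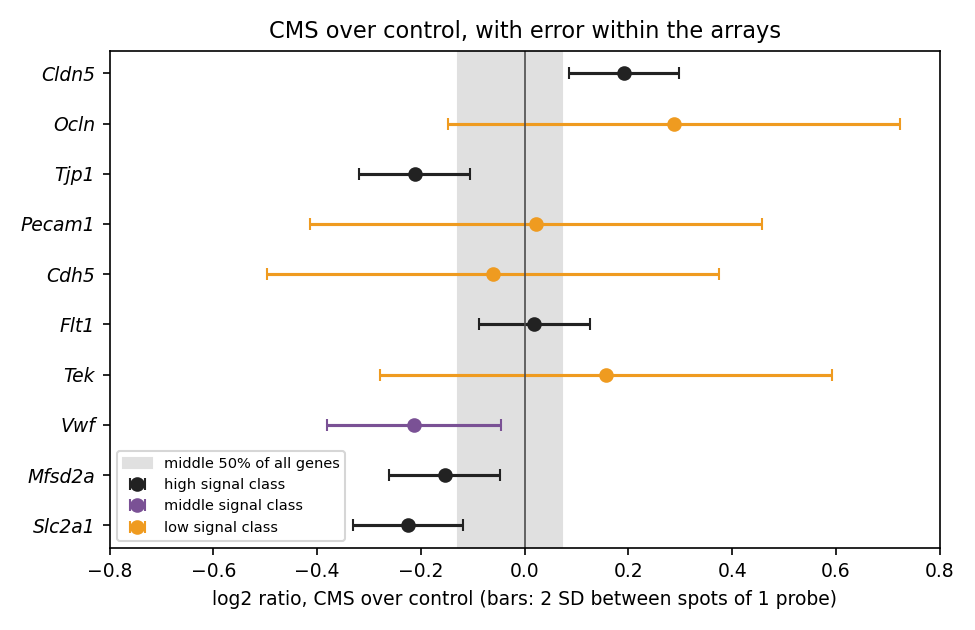
Log2 ratio of CMS over control for each gene, with bars of 2 SD between single spots of 1 probe in the gene's signal class and the middle 50% of all genes in gray. The bars of Cldn5 lie above 0, those of Tjp1, Vwf, Mfsd2a and Slc2a1 lie below 0, and the bars of the genes of the low class cross 0.

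Claudin-5, encoded by Cldn5, is the main claudin of brain endothelial cells and makes their junctions tight to small molecules. Its signal was 3237 (C group) and 3697 (CMS group), a log2 ratio of 0.19, or 14.2% higher. The ratio was positive under all processing settings, between 0.02 with no scaling and 0.24 after centering on the spots nearby. Several of these settings could not change the ratio, and several others shift all genes alike. A ratio at least as far from 0 was found for 28.7% of all gene names.

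Occludin, encoded by Ocln, spans the membrane at the tight junction. Its signal was 45.4 (C) and 55.4 (CMS), a log2 ratio of 0.29. These signals were 2.55 and 3.15 times the lowest signal well above background, and the ratio was 0.08 under normexp background correction with quantile normalization (called normexp below). A ratio at least as far from 0 was found for 17.4% of gene names.

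Tjp1 encodes zonula occludens 1, the scaffold that ties claudins and occludin to actin. It was lower in the CMS group, with signals of 1805 and 1558 and a log2 ratio of -0.21. Spots within 15 rows and columns of its spot had a median ratio of -0.03, and after this was taken off the ratio was -0.18.

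Contacts between endothelial cells are also held by VE-cadherin, encoded by Cdh5, at adherens junctions, and by the adhesion molecule PECAM-1, known as CD31. Cdh5 had signals of 203 (C) and 194.5 (CMS), a log2 ratio of -0.06. The Pecam1 probe was placed on 2 spots, with signals of 196 and 186 (C) and of 198 and 189 (CMS). Its spots gave log2 ratios of 0.02 and 0.02, and the sign of the Pecam1 ratio turned with no scaling, under median scaling and under normexp. For 67.9% and 88.2% of gene names the ratio was at least as far from 0 as those of Cdh5 and Pecam1. These general endothelial genes were thus nearly equal in the pools, in a signal range where differences under 0.44 were within the error.

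Flt1 encodes VEGF receptor 1, which binds VEGF-A and placental growth factor and, in its soluble form, holds them away from the signaling receptor. Its signals were 5162 and 5229, a log2 ratio of 0.02 whose sign turned under median scaling and with no scaling. Which part of the Flt1 transcript the probe reads is not stated in the table, so membrane-bound and soluble forms were not separated.

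Tek encodes Tie2, the receptor of the angiopoietins. Its signal was 75.8 (C) and 84.6 (CMS), a log2 ratio of 0.16, which was -0.02 with no scaling and -0.03 under normexp. It lay within the error of the low class.

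Von Willebrand factor, encoded by Vwf, is stored in endothelial cells and binds platelets to injured vessel walls. Its signal was 1332 (C) and 1149 (CMS). The log2 ratio was -0.21, or 13.8% lower, and lay between -0.39 and -0.17 under all settings.

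Mfsd2a carries lysophosphatidylcholine with docosahexaenoic acid into the brain and keeps vesicular transport low. Its signals were 1515 (C) and 1361 (CMS), a log2 ratio of -0.15. Centered on the spots nearby it was -0.10 and under normexp -0.08, both short of 0.11, the limit of its class.

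Slc2a1 encodes GLUT1, the glucose carrier of the barrier. Slc2a1 had the lowest ratio of the 10 genes, with signals of 3220 (C) and 2756 (CMS) and a log2 ratio of -0.22. The ratio was negative under all settings, from -0.40 with no scaling to -0.14 under normexp. For 23.8% of gene names the ratio was at least as far from 0. GLUT1 is also made by astrocytes, so this gene does not read the endothelium alone.

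**Figure D3:**
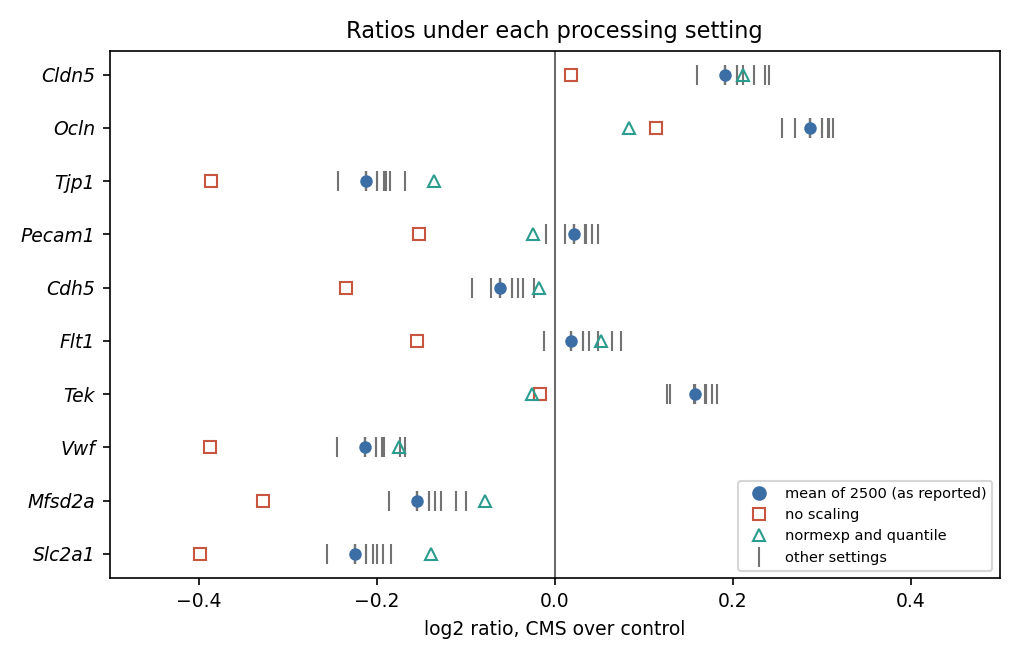
Log2 ratio of CMS over control of each gene under each of 15 processing settings, with the reported setting as filled circles. Cldn5 and Ocln lie above 0 and Tjp1, Cdh5, Vwf, Mfsd2a and Slc2a1 lie below 0 in all settings, whereas Pecam1, Flt1 and Tek lie on both sides. Several settings could not change a ratio of these genes, and scaling by a single factor per array shifts all genes alike.

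Promoters are shown for the genes at the ends of the range of ratios that had an entry, Ocln and Cldn5 as the highest and Slc2a1 and Tjp1 as the lowest. RefSeq (GRCm38.p6) gave a promoter for 7 of the 10 genes. Pecam1, Cdh5 and Vwf had no entry. The 250 bases before the start of the transcript are printed 5′ to 3′ on the strand of the gene, with capitals for the letters GGAA or TTCC, the core that ETS factors of endothelial cells bind. The windows lie at chr16:18776597-18776846 (plus strand) for Cldn5, chr13:100552719-100552968 (minus strand) for the first of both Ocln starts, chr7:65371245-65371494 (minus strand) for Tjp1 and chr4:119108495-119108744 (plus strand) for Slc2a1.
Cldn5: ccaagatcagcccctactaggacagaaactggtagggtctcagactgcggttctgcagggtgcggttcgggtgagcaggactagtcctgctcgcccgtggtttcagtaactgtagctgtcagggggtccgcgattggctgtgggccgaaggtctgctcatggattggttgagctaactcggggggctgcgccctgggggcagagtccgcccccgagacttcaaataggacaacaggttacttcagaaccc
Ocln: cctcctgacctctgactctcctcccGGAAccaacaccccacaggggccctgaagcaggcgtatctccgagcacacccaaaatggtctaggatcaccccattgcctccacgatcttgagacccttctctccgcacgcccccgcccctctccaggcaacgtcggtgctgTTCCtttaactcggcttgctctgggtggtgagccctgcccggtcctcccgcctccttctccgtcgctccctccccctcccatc
Tjp1: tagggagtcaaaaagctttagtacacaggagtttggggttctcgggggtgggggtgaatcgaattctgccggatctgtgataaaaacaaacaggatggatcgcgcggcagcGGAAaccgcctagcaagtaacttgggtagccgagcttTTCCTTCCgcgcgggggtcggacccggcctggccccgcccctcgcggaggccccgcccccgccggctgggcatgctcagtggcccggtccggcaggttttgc
Slc2a1: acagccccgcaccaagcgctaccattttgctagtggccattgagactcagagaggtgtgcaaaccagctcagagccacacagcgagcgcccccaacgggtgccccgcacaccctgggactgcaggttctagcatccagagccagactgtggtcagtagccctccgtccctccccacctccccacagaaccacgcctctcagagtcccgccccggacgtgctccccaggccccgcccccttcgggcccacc

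The GGAA core was found 0 times for Cldn5, 2 times for Ocln, 3 times for Tjp1 and 0 times for Slc2a1, on either strand, and was held by 93.4% of 32851 promoter windows of the same length. The core of the hypoxia element, ACGTG, was found 1 time for Slc2a1 and not for the others, beside 16.6% of windows. The GC box GGGCGG was found 1 time for Cldn5 and Ocln and 2 times for Tjp1 and Slc2a1, beside 32.7% of windows. The glucocorticoid receptor motif AGAACA (16.1% of windows), the SOX core ACAAT (27.7%) and TATAAA (12.4%) were not found in these 4 windows. In the windows not printed, GGAA was found 4 times for Flt1 and 2 times for Tek and Mfsd2a, and ACGTG 2 times for Mfsd2a. Tek also held AGAACA 1 time and ACAAT 2 times, and Flt1 held GGGCGG 3 times and TATAAA 1 time. The second Ocln start held GGAA and GGGCGG 1 time each. All motifs were searched on both strands, one by one, and may overlap. The matches are a description of these letters, and no binding was measured.

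Of 20 further genes of tight and adherens junctions, 19 had a ratio, and their median was -0.05. Ratios below 0 were found for 12 of them, beside 58.8% of all gene names. Jup was the only one past 2-fold. Jup encodes plakoglobin, a catenin of adherens junctions and desmosomes, and was at least 4.55-fold lower in the CMS group, with a signal of 80.1 in the C pool and 17.5, not well above background, in the CMS group. Under normexp its log2 ratio was -0.89, which is short of 2-fold. Tjp3, which encodes a junction scaffold, had a ratio of 0.48. Afdn, which encodes the junction protein afadin, had 0.39. The claudins other than Cldn5 were Cldn12, with -0.16, Cldn3, at least 1.69-fold higher with the C group not well above background (signals of 8.0 and 30.0) but with a log2 ratio of 0.33 under normexp, and Cldn1, which was not well above background in either group. Marveld2, which encodes tricellulin, had the lowest measured ratio, -0.21. The ratios of Marveld2 and Afdn lay within the limit of the low class. Ctnnb1, which encodes beta-catenin, the partner of VE-cadherin, had -0.13. By the limits of the signal classes 3 of the 19 genes were higher and 4 lower, beside 9.03% and 14.7% of all gene names.

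Of 28 genes of the endothelial surface and identity, 27 had a ratio and none was called past 2-fold. Icam1 was a bound, at least 1.35-fold higher with the C group not well above background. Their median was -0.08 and 20 were below 0, beside 58.8% of all gene names. By the limits of the signal classes 1 was higher and 6 were lower, beside 9.03% and 14.7% of all gene names. Of all gene names in the middle class 16.3% were lower, and 20.3% in the high class. Kdr, which encodes the signaling VEGF receptor, had the highest ratio among genes well above background in both groups, with signals of 8540 and 9681 and a log2 ratio of 0.18, whereas its other probe gave 0.01. Cav1, the coat protein of caveolae, had 0.12 at signals of 22.7 and 24.6, close to background. Plvap, a protein of fenestrated endothelium that the mature barrier lacks, had 0.08. The lowest ratios were those of Procr, the endothelial protein C receptor, with -0.70, or 1.62-fold lower, from a signal of 81.0 in the C pool, and of Robo4, a guidance receptor of vessels, with -0.31. The Procr ratio was -0.24 under normexp.

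Of the ligands of Flt1 and Tek, Vegfa had a log2 ratio of 0.09, Vegfb of -0.03, Pgf of 0.02, Angpt1 of 0.11 and Angpt2 of 0.10. These ratios lay within the limits of their signal classes. Angpt4 was not well above background in either group. Tie1, the sister receptor of Tie2, had -0.28, and Ptprb, the phosphatase that acts on Tie2, had -0.11 but 0.04 by its other probe. Over 20 genes of VEGF and angiopoietin signaling, 19 had a ratio, with a median of -0.02, none called past 2-fold, and 3 higher and 3 lower by the limits of the signal classes, beside 9.03% and 14.7% of all gene names. Flt4, another VEGF receptor gene, was 1 of those higher, by a bound of at least 1.57-fold. Its signals were 4.0 (C, not well above background) and 27.9 (CMS), so whether it passed 2-fold is not known. Its log2 ratio was 0.37 under normexp. The highest measured ratio was that of Angptl4, a secreted lipase inhibitor, with 0.51 at signals of 729 and 1037, and the next that of Pik3r1, with 0.17. The lowest were those of Dll4, a Notch ligand of vessel tips, with -0.31 at signals of 35.0 and 28.2, and Nrp2, a co-receptor of VEGF, with -0.27. The ratios of Dll4 and Tie1 lay within the limit of the low class.

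All 12 genes of Wnt signaling at the brain endothelium had a ratio. Their median was -0.03, none was past 2-fold, and by the limits of the signal classes none was higher and 4 were lower. Among all gene names 14.7% were lower by these limits, and 16.3% in the middle and 20.3% in the high class. Fzd4, the receptor of norrin, had signals of 391 (C) and 287 (CMS) and a log2 ratio of -0.45. Apcdd1, a Wnt inhibitor of barrier vessels, had -0.33. The highest ratios were those of Tspan12, a partner of Fzd4, with 0.07, and Reck, with 0.03 but -0.24 by its other probe.

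Transport genes of the barrier had mostly negative ratios, as Slc2a1 and Mfsd2a did. Of 20 further carriers, pumps and receptors, 19 had a ratio, all of them well above background in both groups, and 17 were below 0, beside 59.9% of the gene names well above background on both arrays. Their median was -0.13, none was past 2-fold, and by the limits of the signal classes none was higher and 9 were lower, beside 14.7% lower among all gene names, 16.3% in the middle class and 20.3% in the high class. Markers of oligodendrocytes also had mostly negative ratios, with a median of -0.15 and 4 of 8 lower by these limits, and their part in the values of the transport genes was not tested. After centering on genes of like signal the median was -0.09. The lowest ratios were those of Slc19a3, a thiamine carrier, with -0.44 at signals of 44.7 and 32.9 but -0.03 by its other probe and -0.16 under normexp, and Slc7a5, the large neutral amino acid carrier, with -0.29 at signals of 1500 and 1225. The highest were those of Slc7a1, a carrier of cationic amino acids, with 0.06, and Abcc4, an efflux pump, with 0.02. Slc2a3, the glucose carrier of neurons, had a ratio of -0.01. The list thus does not read the endothelium alone, and the cells behind the negative ratios were not separated.

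Of 8 genes that act with von Willebrand factor, 6 had a ratio, with a median of -0.05 and none called past 2-fold. Mmrn1 was a bound, at least 1.31-fold lower with the CMS group not well above background (signals of 23.1 and 10.6). F8, the coagulation factor that it carries, had 0.36 at signals of 33.3 and 42.8, and Adamts13, the protease that cuts it, had -0.21 at 41.2 and 35.6. The platelet receptor genes Gp9 and Gp1bb had 0.08 and -0.08, and the other probes of Gp1bb gave -0.10 and 0.12. No gene of this list passed the limit of its signal class.

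**Figure D4:**
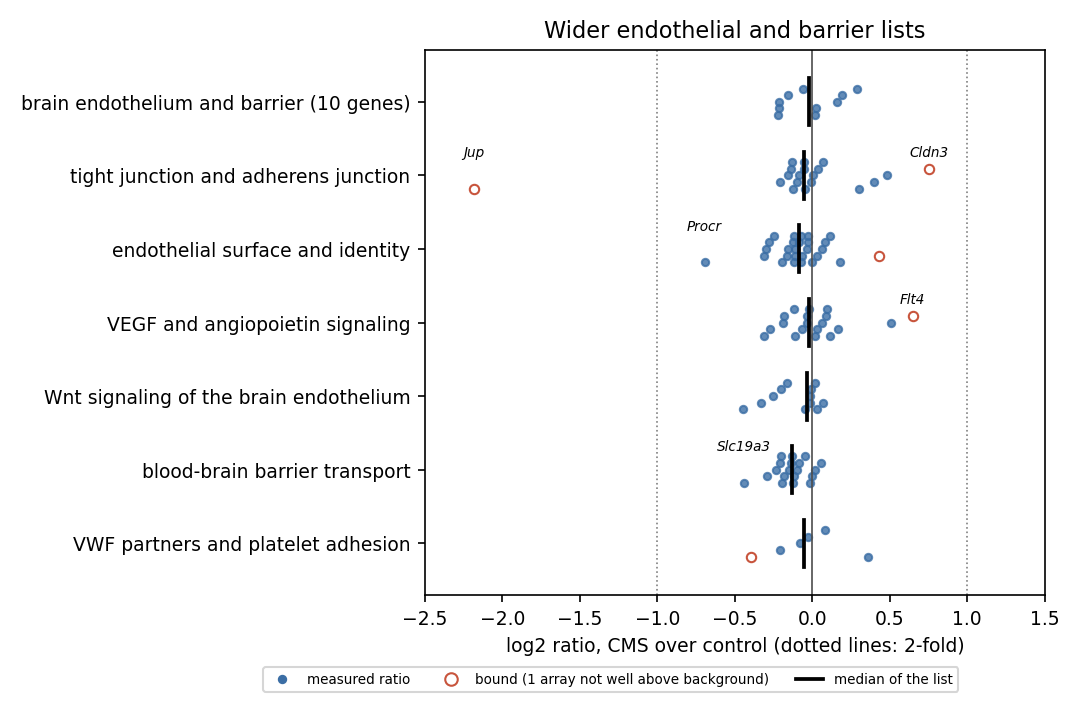
Log2 ratio of CMS over control for each gene of the wider lists, with measured ratios as filled circles, bounds as open circles and list medians as black lines. Jup lies past the dotted line for 2-fold and the other genes lie inside both dotted lines, with most of the transport genes left of 0. Bounds are drawn at their smallest difference.

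Markers of other cells were read in the same pools, and their part in the values of the 10 genes was not tested. Of 10 cortical neuron markers all were well above background in both groups, with a median of 0.01, as were 8 of 8 astrocyte markers (0.00), 8 of 8 microglia markers (0.05) and 8 of 8 oligodendrocyte markers (-0.15). The cells next to the endothelium gave medians of -0.01 for 10 pericyte genes, -0.01 for 10 genes of perivascular fibroblasts and meninges, and -0.09 for the 6 of 8 smooth muscle genes with a ratio. None of these lists held a gene past 2-fold. Summed signals were 9460 (C) and 9861 (CMS) for pericytes, 3543 and 3255 for smooth muscle, and 159520 and 148217 for fibroblasts and meninges. Single genes held much of these sums. Vtn, of pericytes, had signals of 5312 and 5936, and Ptgds, of fibroblasts and meninges, of 151012 and 139437. The log2 ratio of Vtn, 0.16, was the highest of the pericyte list, in which 5 of 10 genes were below 0. By the limits of the signal classes 1 pericyte gene (Vtn) was higher and 3 were lower, beside 9.03% and 14.7% of all gene names. These numbers were 2 and 1 for smooth muscle and 1 and 1 for fibroblasts and meninges. Des and Lmod1, of smooth muscle, were not well above background in either pool.

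Markers of hepatocytes and red blood cells had higher signals in the CMS pool. All 12 hepatocyte markers were higher, with a median of 3.04 and summed signals of 19788 (C) and 104375 (CMS). Past 2-fold were Alb, Ahsg, Apoa1, Fgb, Serpina1a, Apob, Ambp, Hpx, Cps1, Apoa2 and Fga, but not Tat, with 0.74, and all were well above background in both groups. Of 10 markers of liver sinusoidal endothelium, 9 had a ratio, with a median of 0.13, and Dnase1l3 was not well above background in either pool. Their list had summed signals of 1322 and 1436. Stab2, a scavenger receptor, had signals of 28.3 and 60.4 and Clec4g, a lectin, of 46.9 and 104, both past 2-fold, whereas under normexp their log2 ratios were 0.43 and 0.44. Other genes of this list were flat or lower, with 0.06 for Stab1, -0.17 for Lyve1 and -0.20 for Gpr182. By the limits of the signal classes 3 of the list were higher and 1 was lower, beside 9.03% and 14.7% of all gene names. Of 8 erythroid genes, 4 had a ratio, all higher, with a median of 0.48 and summed signals of 21376 and 28474. Of 6 platelet genes, 4 had a ratio, with a median of 0.31 and summed signals of 663 and 671. Pf4 held most of these sums, with signals of 479 and 420 and a log2 ratio of -0.19. The median was 0.08 over the 3 platelet genes well above background in both pools and 0.13 under normexp. Choroid plexus genes had a median of 0.11 over 7 genes, with Ttr, which hepatocytes also make, at 3.38. The lowest was Sostdc1, with -0.56 at signals of 38.1 and 25.9. By the limits of the signal classes 1 choroid plexus gene was higher and 1 lower, and these numbers were 2 and 1 for platelets.

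**Figure D5:**
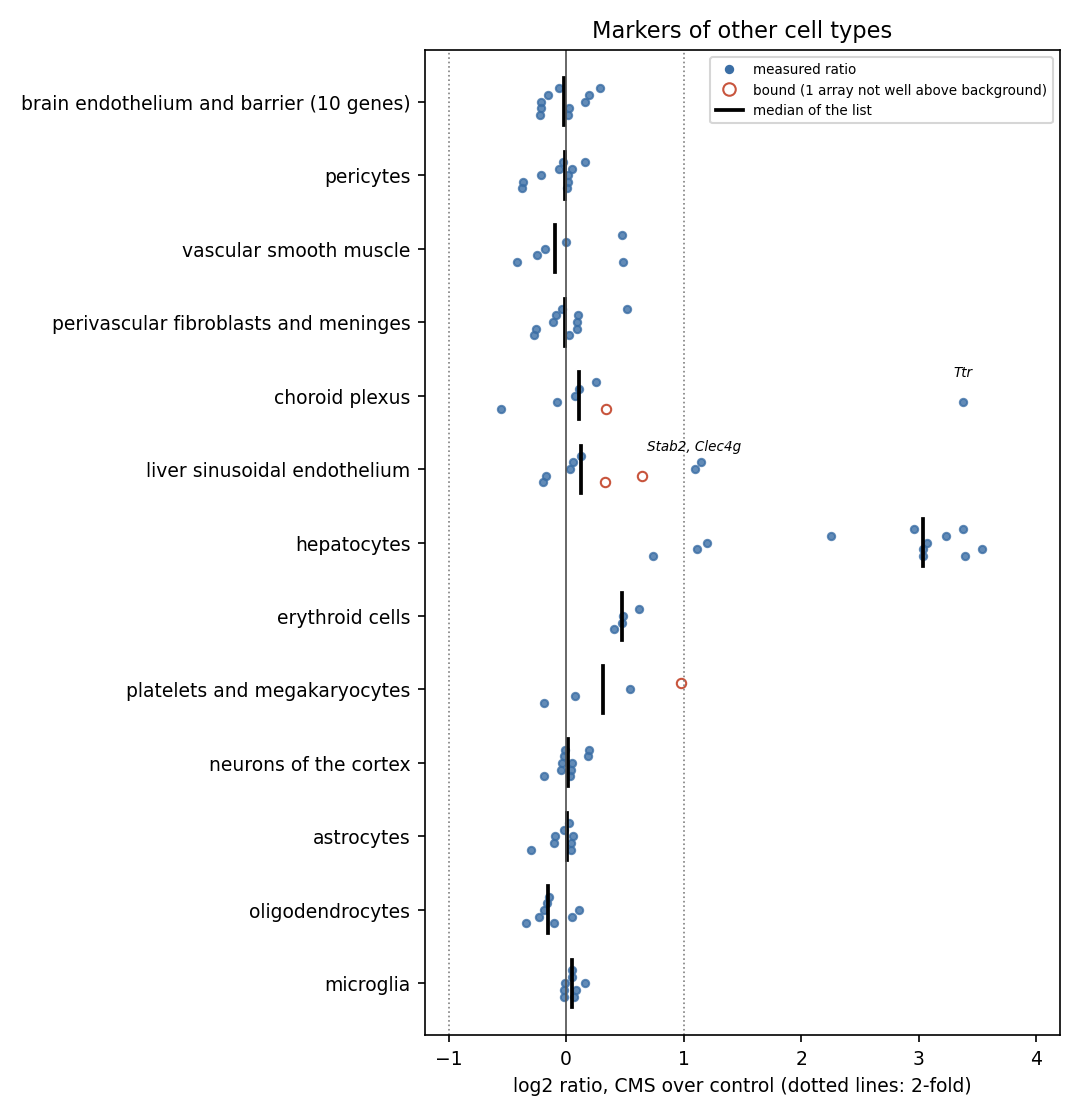
Log2 ratio of CMS over control for marker genes of other cell types beside the 10 brain endothelium and barrier genes, with symbols as in the plot of the wider lists. Hepatocyte markers lie up to 3.53, erythroid markers lie between 0.41 and 0.62, the medians of neurons, astrocytes, microglia and pericytes lie between -0.01 and 0.05, and that of oligodendrocytes lies at -0.15.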

How the data were processed

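Total RNA of mouse PFC was labeled with Cy3 and hybridized to 1-color Agilent SurePrint G3 Mouse GE arrays, 1 for the pooled RNA of each group, both on 1 slide. The authors deposited processed signal intensities of each spot, made with Agilent Feature Extraction 10.10.1.1, on a linear scale, from which the software had taken background and spatial trends and which were not scaled between arrays. They also deposited a table of scaled intensities, which here equals the processed signal times 1 factor per array (1.80 and 2.05), so that its mean is 2500 once 2% of the spots are trimmed at either end.

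Control spots and outlier spots (130 and 133) were left out, spots of 1 probe were averaged, and the probes of each array were scaled so that they averaged 2500, as the methods state. A share of 0.5 of a probe's spots had to be well above background for the probe to pass. The lowest such signals, 17.8 (C group) and 17.6 (CMS group), or the probe's own signal if higher, stood in for a probe that was dim on 1 array, so that its ratio is a bound. Probes dim on both arrays were given no ratio. Of several probes of a gene, the brightest by mean log2 signal was taken. Accessions without versions were matched to gene symbols in RefSeq's table for GRCm38.p6, which named 27235 of 55681 probes. The other probes kept their accession as their gene name. Promoter sequences came from RefSeq for the same build, which is not the build of the array design, and no coordinates of the array were used.

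A test, an SD between mice and an adjustment for slide were not possible with a single array per group, and the number of arrays limits the precision. A gene was called higher where its ratio was above 2 and lower where it was below 0.5. A second rule took 2 SD of the log2 ratios of replicate spots, over all replicated probes or within 3 equal signal classes of them. The rule by signal class and the centering on nearby spots and on genes of like signal were chosen after seeing the data. The 10 genes and all other lists were chosen with earlier results of these data known. Named genes were the 10 genes, genes of the other lists past 2-fold, the 2 highest and 2 lowest of each pathway list well above background on both arrays, and direct partners of the 10 genes. Some further genes were named where a ratio was a bound, where a sum rested on them, or where they went against others of their list. The 2-fold calling was tested on simulated data with log2 changes of 2 in either direction put in. The calls past 2 SD were not tested in this way. Normexp background correction was run in limma 3.58.1 (R 4.3.3), and all else in Python 3.11.15 (pandas 2.3.3, numpy 2.4.6). Alternatives were scaling to the 75th percentile, median or trimmed mean, no scaling, quantile normalization, normexp with an offset of 50 on median spot intensities followed by quantile normalization, the deposited table, 3 other treatments of dim probes, outlier spots kept, and the mean of all probes.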

Additional observations from a re-analysis of the deposited data

How the results depend on the processing

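No paired analysis was possible because each group has 1 array, and no replicate could be left out. No gene of the 10 passed 2-fold under any setting. With no scaling the median of the 10 genes, -0.02, was -0.19, the numbers past 2 SD over all probes were 0 higher and 4 lower, the number higher by signal class was 0, and the list medians were -0.23 for junctions, -0.26 for endothelial identity, -0.19 for VEGF and angiopoietins, -0.21 for Wnt, -0.30 for transport and -0.23 for Vwf partners, since all ratios shift by construction. Ocln was also within 2 SD under median scaling and normexp (0 higher). Centered on genes of like signal, medians were -0.012 for junctions, 0.024 for VEGF and angiopoietins and -0.086 for transport. Centered on spots nearby, endothelial identity was -0.045. With the mean of all probes, Vwf partners were 0.029. Of 140 values of single genes among the 10, 12 moved by more than the spot SD, 10 with no scaling and 2 under normexp. The treatments of dim probes and the mean of all probes could not move these values. Each gene had a single probe well above background. Scaling by a single factor per array, the deposited table included, shifts all genes alike. Only quantile normalization, normexp and the centerings could move genes against each other.

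Over all gene names, 532 more than 2-fold higher became 265 under normexp, 294 among genes bright on both arrays and 1493 when no filter was set, and 153 lower became 250 with no scaling, 38, 315 with no floor, 44 and 1069. The share of higher among calls, 77.7%, was 63.1% with no scaling and 58.3% with no filter. Past 2 SD, 2526 higher became 1417 with no scaling, 1261 under normexp and 4655 with no filter, and 2630 lower became 8718, 1054 and 4817. The causes were not tested unless stated.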
